A study of Arabidopsis thaliana with 2 samples.

Results

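Peaks at 4 related MADS-box genes of Arabidopsis thaliana, AP1, CAL, FUL and AGL79, were described in the DNA binding data of 2 protein complexes. The genes were found in a TAIR10.1 gene table by symbol or synonym as AP1 (AT1G69120), CAL (AT1G26310), FUL, listed under AGL8 (AT5G60910), and AGL79 (AT3G30260), and they are 4 of 27444 protein-coding genes on chromosomes 1 to 5. All peaks with a midpoint inside one of these genes or within 3000 bp of it were taken, which gave 2 of the 1681 peaks of the complex SEP3Δtet3M-AG and 2 of the 2277 peaks of the complex SEP3Δtet-AGΔtet. The synonym AGL79 is also attached to a second locus in that table, AT1G30260, a gene of 916 bp. It was not counted, and its nearest peaks lay 8106 bp away with SEP3Δtet3M-AG and 8097 bp away with SEP3Δtet-AGΔtet.

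Each complex pairs SEPALLATA3 (SEP3) with AGAMOUS (AG), both MADS-domain transcription factors, and its binding was assayed by seq-DAP-seq, a sequential form of DNA affinity purification sequencing. Here tagged proteins capture fragments of extracted genomic DNA outside the plant, one partner after the other, so that the DNA carries no chromatin. The DNA came from untreated seedlings 2 weeks old, and both complexes are tetramerization mutants per the series' design text. In SEP3Δtet3M-AG the alteration is named on SEP3 only, with 3M not explained, and in SEP3Δtet-AGΔtet it is named on both partners. The groups follow the sample titles, because the genotype label reads SEP3Δtet3M-AG for both samples. Each complex has 1 peak list, so no value below has a replicate error and no test between the complexes was possible. The files give a chromosome, a start and an end for each peak of 400 bp, without a height or a p-value, so that a peak is present or absent and the depth behind it is unknown. A gene without a peak is therefore one where none was called, which does not show that the complex did not bind.

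AP1, CAL, FUL and AGL79 form a clade of MADS-domain transcription factors. AP1 and its close relative CAL give young flower meristems their identity, and plants without both make cauliflower-like heads of repeated meristems. AP1 also specifies sepals and petals, and AG keeps AP1 out of the inner whorls of the flower. FUL promotes flowering and shapes the fruit valves. AGL79 is a close relative of FUL and the least described member of the clade. MADS-domain proteins bind DNA as dimers at CArG boxes, and SEP proteins can join dimers into tetramers that hold a pair of such boxes.

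Each of the 4 genes had exactly 1 peak, its midpoint lay inside the gene, and it stood in 1 list only. The peaks at AP1 and CAL were found with SEP3Δtet3M-AG and those at FUL and AGL79 with SEP3Δtet-AGΔtet. The lists thus split along the closest relationships in the clade, with both AP1-type genes on one side and both FUL-type genes on the other. With 4 genes and 1 list per complex this split is a description and was not tested. The 2 members with a peak in the SEP3Δtet3M-AG list stand beside a background of 12.0% of all protein-coding genes (3305 genes, exact 95% interval 11.7 to 12.4, counting of genes only). The 2 in the SEP3Δtet-AGΔtet list stand beside 15.8% (4338 genes, interval 15.4 to 16.2). All 4 genes are longer than most, at 3651 to 4297 bp against a median of 2078 bp, and among genes of 3000 to 5000 bp the background was 15.1% for SEP3Δtet3M-AG and 19.4% for SEP3Δtet-AGΔtet. Counting only genes called in 1 list, the background was 3.39% for SEP3Δtet3M-AG and 7.15% for SEP3Δtet-AGΔtet. Midpoints inside the gene occurred at 3.17% of genes in the SEP3Δtet3M-AG list and 3.80% in the SEP3Δtet-AGΔtet list. Of the 5375 genes of 3000 to 5000 bp, 333 had one in the SEP3Δtet3M-AG list and 392 in the SEP3Δtet-AGΔtet list, a higher share. The full pattern of the members, a midpoint inside the gene and no peak of the other list within 3000 bp, occurred at 0.893% of protein-coding genes for SEP3Δtet3M-AG (245 genes) and at 1.50% for SEP3Δtet-AGΔtet (413 genes). Among genes of 3000 to 5000 bp this pattern occurred at 1.60% for SEP3Δtet3M-AG and at 2.72% for SEP3Δtet-AGΔtet.

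**Figure D1:**
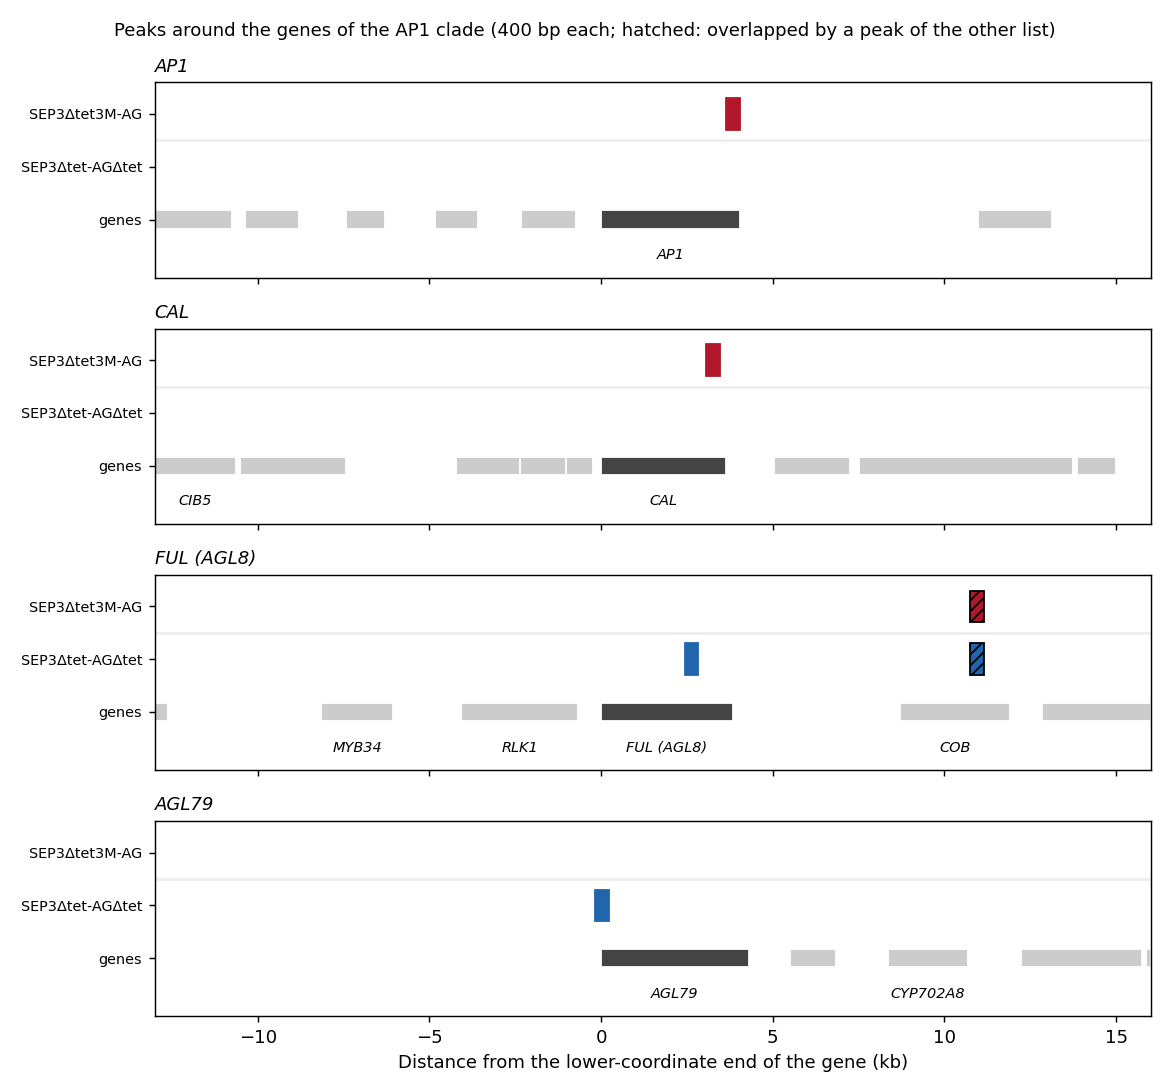
Peaks of each list (SEP3Δtet3M-AG above, SEP3Δtet-AGΔtet below) and protein-coding genes around AP1, CAL, FUL and AGL79, by distance in kb from the lower-coordinate end of the gene, which is drawn dark. Coloured blocks are peaks of 400 bp, and hatching marks a peak overlapped by one of the other list: each of the 4 genes carries 1 block in 1 list, and the hatched pair lies in COB, the neighbour of FUL.

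At AP1 the SEP3Δtet3M-AG peak covered chr1:25985939-25986338, in the coordinates of the peak files. All of its 400 bp fell inside the gene, and its midpoint lay 211 bp from the higher-coordinate end. The gene table gives no strand, exons or untranslated regions, so the peak could not be placed upstream or downstream or assigned to an exon or an intron. AP1 was also the nearest gene, and the next protein-coding gene, AT1G69100, lay 4579 bp from the midpoint. The SEP3Δtet-AGΔtet list had no peak within 3000 bp. Its nearest one lay 49061 bp from the gene, inside AT1G69250 at chr1:26035211-26035610, and the SEP3Δtet3M-AG list held a peak with exactly the same bounds. Between AP1 and that shared peak neither list had another. The protein-coding neighbours on both sides, AT1G69100 and AT1G69150, had no peak within 3000 bp in either list.

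CAL, the closest relative of AP1, had its SEP3Δtet3M-AG peak at chr1:9103058-9103457. It also lay wholly inside the gene and toward the higher-coordinate end, with the midpoint 387 bp from that end. AP1 and CAL thus carried their peaks in the same part of the gene by coordinate, 94.8% and 89.4% of the way along it. The CAL peak also lay 1781 bp from the neighbouring gene AT1G26320, although CAL was the nearest. It was far from other peaks of its own list, with the next midpoint 233793 bp away, a distance that 99.4% of SEP3Δtet3M-AG peaks did not exceed. The nearest SEP3Δtet-AGΔtet peak to CAL lay 34431 bp from the gene, at chr1:9065364-9065763, and was itself found in that list only.

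FUL had its SEP3Δtet-AGΔtet peak at chr5:24504866-24505265. The midpoint lay 2631 bp from the lower end and 1204 bp from the higher end, which makes it the member peak deepest inside its gene. FUL was also the member nearest to a peak of the other list: COB, the neighbour on the higher-coordinate side and a gene needed for oriented cell expansion, had a peak inside it in both lists, with midpoints 1 bp apart (chr5:24513180-24513579 with SEP3Δtet3M-AG). RLK1, the neighbour on the lower-coordinate side, lay 3295 bp from the midpoint of the FUL peak and had no peak within 3000 bp in either list. The COB peak lay 7110 bp from FUL with SEP3Δtet3M-AG and 7111 bp with SEP3Δtet-AGΔtet. The neighbourhood within 100 kb of FUL held 9 SEP3Δtet3M-AG peaks and 6 SEP3Δtet-AGΔtet peaks, against medians of 3 and 4 in these lists over all protein-coding genes. Within 50 kb it held 2 SEP3Δtet3M-AG peaks and 3 SEP3Δtet-AGΔtet peaks, with the FUL peak counted in, so the order of the lists depended on the window.

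AGL79 had its SEP3Δtet-AGΔtet peak at chr3:11908698-11909097. This peak straddled the lower-coordinate end of the gene, with 228 bp inside and 172 bp outside and the midpoint 27 bp inside. No other protein-coding gene lay within 3000 bp of it: the next one, AT3G30280, lay 5469 bp from the midpoint and the neighbour on the lower side, AT3G30247, was 20143 bp from the gene. The nearest SEP3Δtet3M-AG peak lay 58917 bp from AGL79 (chr3:11971884-11972283) and was shared, with a SEP3Δtet-AGΔtet peak 23 bp away. Within 100 kb of AGL79 there were 2 SEP3Δtet3M-AG peaks and 4 SEP3Δtet-AGΔtet peaks, near the same medians of 3 and 4. Within 50 kb there was none with SEP3Δtet3M-AG and 1, the peak itself, with SEP3Δtet-AGΔtet, against medians of 1 and 2.

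Near the end of a gene lay 3 of the 4 midpoints, those of AP1, CAL and AGL79, at 400 bp or less. Among all peaks inside genes and found in 1 list only, this held for 35.4% with SEP3Δtet3M-AG (104 of 294) and for 36.5% with SEP3Δtet-AGΔtet (175 of 480). The nearer gene end lay a median of 607.5 bp from such midpoints with SEP3Δtet3M-AG and 630 bp with SEP3Δtet-AGΔtet, so that AP1, CAL and AGL79 fell below the median and FUL above it. The limit of 400 bp was not among the planned settings, and CAL lay just under it at 387 bp.

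The distance to the other list was then set against that of all peaks found in 1 list only. From the AP1 peak to the nearest SEP3Δtet-AGΔtet midpoint were 49272 bp and from the CAL peak 37694 bp. Over the 544 peaks found with SEP3Δtet3M-AG only, the median was 18640 bp and the interquartile range ran from 6911 to 36668 bp, so both genes lay above that range. From the FUL peak to the nearest SEP3Δtet3M-AG midpoint were 8314 bp and from the AGL79 peak 63186 bp. Over the 1146 peaks found with SEP3Δtet-AGΔtet only, the median was 21090 bp and the interquartile range ran from 8331 to 44749 bp, which places FUL just below the range and AGL79 above it. None of the 4 peaks was thus split from a peak of the other list by a small shift of position.

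**Figure D2:**
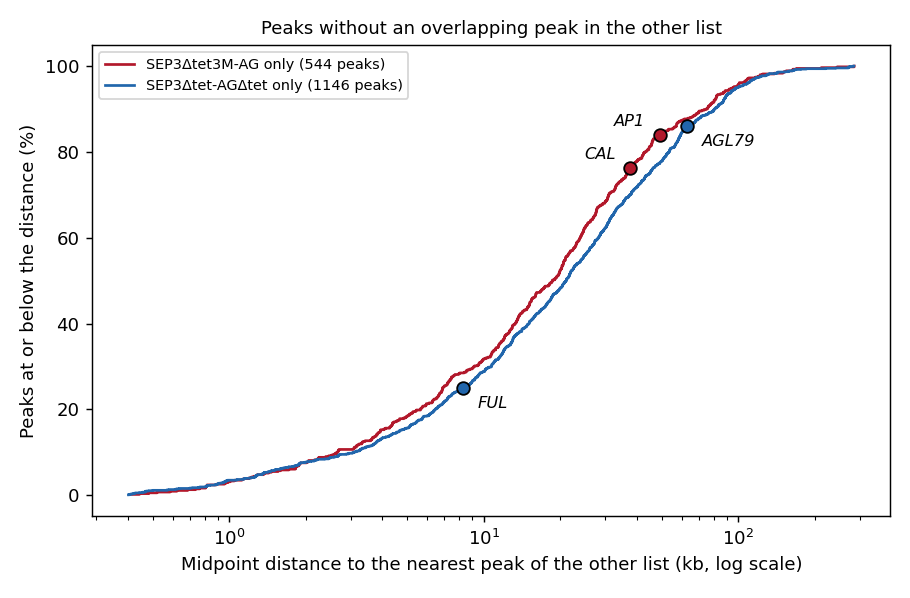
Cumulative share in % of peaks called in the SEP3Δtet3M-AG list only (544) and in the SEP3Δtet-AGΔtet list only (1146), by midpoint distance in kb (log scale) to the nearest peak of the other list. The dots mark the member peaks: FUL lies at 8314 bp, below both medians, and CAL, AP1 and AGL79 lie at 37694 to 63186 bp, above them.

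The 4 genes were next set beside the other MIKC-type MADS-box genes, the class with a keratin-like domain through which these proteins pair and form tetramers. Within the 3000 bp limit, 18 of the 39 MIKC genes listed here were called with SEP3Δtet3M-AG (46.2%, background 12.0%). With SEP3Δtet-AGΔtet 19 were called (48.7%, background 15.8%). The median length of the MIKC genes was 3753 bp, and among genes of 3000 to 5000 bp the backgrounds were 15.1% and 19.4% in that order. Both lists called 14 MIKC genes, against 8.65% of all protein-coding genes. All 14 were outside the AP1 clade. The pattern of an inside midpoint in 1 list and no call within 3000 bp in the other occurred at AP1 and CAL for SEP3Δtet3M-AG, at FUL and AGL79 for SEP3Δtet-AGΔtet, and at none of the other 35 MIKC genes. Over all protein-coding genes, inside midpoints occurred at 3.17% with SEP3Δtet3M-AG and at 3.80% with SEP3Δtet-AGΔtet. Among the 5375 genes of 3000 to 5000 bp they occurred at 333 with SEP3Δtet3M-AG and at 392 with SEP3Δtet-AGΔtet, a higher share. Among these 35 MIKC genes they occurred at 10, in both lists each time: AG, AP3, AGL14, AGL19, SVP, AGL24, MAF2, AGL16, AGL17 and AGL18. Their 11 peaks inside genes in each list were all overlapped by one of the other list, with midpoints at most 17 bp apart. Outside the gene, overlap at the other MIKC genes was less complete. Of 21 SEP3Δtet3M-AG peaks there, 11 lay inside a gene, and all 3 without a partner were among the rest. Of 23 SEP3Δtet-AGΔtet peaks, 11 lay inside, and all 5 without a partner were among the rest. PI and SEP4 were called with SEP3Δtet3M-AG only, and TT16, AGL15 and SEP3 with SEP3Δtet-AGΔtet only. The AGL15 midpoint lay 12 bp outside the gene and the AGL79 midpoint 27 bp inside. Only this small difference at the gene edge kept AGL15 out of the pattern of FUL and AGL79. In the AP1 clade 0 of 4 peaks were overlapped. Over the whole lists 32.4% of SEP3Δtet3M-AG peaks and 50.3% of SEP3Δtet-AGΔtet peaks lacked an overlapping partner. Since the genes were chosen with these results known, no test of this contrast is given.

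The SEPALLATA and AGL6 genes are the closest other clades and include SEP3 itself, a partner in both complexes. Among these 6 genes, SEP4 alone was called with SEP3Δtet3M-AG and SEP3 alone with SEP3Δtet-AGΔtet. These are 16.7% in each list, near the backgrounds of 12.0% and 15.8%, and no gene was called in both lists, against 8.65% of all protein-coding genes. Neither of these peaks lay inside the gene. The SEP4 peak lay 398 bp from it and the SEP3 peak 2747 bp from it, with AT1G24265 nearer. No peak was found at SEP1, SEP2, AGL6 or AGL13.

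**Figure D3:**
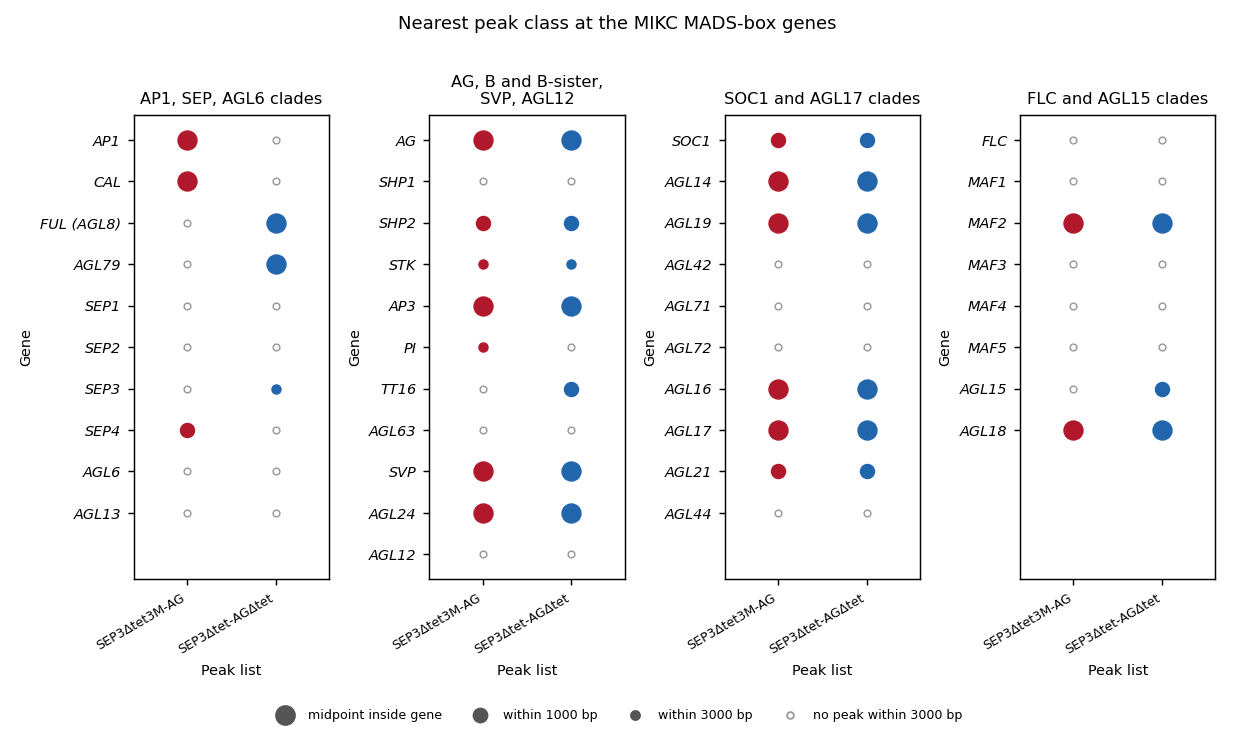
Position class of the closest peak at each of the 39 MIKC MADS-box genes (rows) in the SEP3Δtet3M-AG list (left column of each panel) and the SEP3Δtet-AGΔtet list (right column). Large dots are midpoints inside the gene, smaller dots midpoints within 1000 or 3000 bp, and open dots no peak: the AP1 clade has 1 large dot per gene, while the 10 other genes with a large dot have it in both columns.

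Genes known to act on AP1, CAL and FUL were called at shares near or above the background. Of the 18 regulators, 2 had a peak with SEP3Δtet3M-AG (11.1%, background 12.0%) and 4 with SEP3Δtet-AGΔtet (22.2%, background 15.8%). LFY, which switches on AP1 and CAL, and TFL1, which keeps them off in the shoot tip, had no peak in either list. BOP2, which with its relative BOP1 marks the base of lateral organs and promotes AP1, carried an inside peak in each list, with midpoints 1 bp apart (chr2:17238989-17239388 with SEP3Δtet3M-AG). A second BOP2 peak stood in the SEP3Δtet-AGΔtet list only, 97 bp outside the gene. BOP1 carried an inside peak of the SEP3Δtet-AGΔtet list only, at chr3:21148393-21148792, and the nearest SEP3Δtet3M-AG midpoint lay 21696 bp from it. FT, the flowering signal that acts upstream of AP1, showed the pattern of AP1 and CAL, an inside midpoint in the SEP3Δtet3M-AG list and no SEP3Δtet-AGΔtet call within 3000 bp. The remaining regulators with a peak were FD and SPL5, with SEP3Δtet-AGΔtet only and with another gene nearer to each peak. At a limit of 1000 bp these dropped out, which left 2 regulators in each list. The background at that limit was 1814 of 27444 genes with SEP3Δtet3M-AG and 2385 with SEP3Δtet-AGΔtet.

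Genes that AP1 is known to regulate or to work with had more peaks by count. Of these 12 genes, 5 had a peak with SEP3Δtet3M-AG (41.7%, background 12.0%) and 8 with SEP3Δtet-AGΔtet (66.7%, background 15.8%). At a limit of 1000 bp 3 had one with each complex. The background at that limit was 1814 of 27444 genes with SEP3Δtet3M-AG and 2385 with SEP3Δtet-AGΔtet. The 5 were the flowering repressors SMZ, SNZ, TOE1 and TOE3 and the boundary gene SUP, and all 5 had one in both lists, though another gene lay nearer to the peaks at SMZ and SNZ. All 6 SEP3Δtet3M-AG peaks at these genes were overlapped by a SEP3Δtet-AGΔtet peak, against 67.6% over that whole list and 0 of 2 at AP1 and CAL. This contrast rests on few peaks and was not tested. In the SEP3Δtet-AGΔtet list 4 of 10 peaks had no partner, against 50.3% over that whole list. They were a second peak inside TOE1 and single peaks at TEM1, TEM2, where STN7 was nearer, and LOG1, and the last of these, at an enzyme of cytokinin activation, lay 2490 bp from the gene (chr2:12078334-12078733). No peak was found at CKX3, which breaks down cytokinin, or at LUG, LUH and SEU, which encode co-repressors.

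Of the 8 genes that act with FUL in the fruit, 2 had a peak with SEP3Δtet3M-AG (25%, background 12.0%) and 4 with SEP3Δtet-AGΔtet (50%, background 15.8%). YAB3, an activator of FUL, carried an inside peak in each list, with midpoints 10 bp apart. SAUR10, a growth gene that FUL represses, had a peak in both lists 1265 bp from the gene with SEP3Δtet3M-AG and 1274 bp with SEP3Δtet-AGΔtet. IND and SPT, which form the margin of the fruit valve and the carpel tissues, had a peak with SEP3Δtet-AGΔtet only, as did FUL. At the fruit genes 2 of 4 SEP3Δtet-AGΔtet peaks thus had no partner, near the 50.3% of that whole list. The midpoints lay 29 bp from IND and 467 bp from SPT. Among the 38 regulators, targets, partners and fruit genes together, 8 were called with SEP3Δtet-AGΔtet only and 1 with SEP3Δtet3M-AG only. Over all protein-coding genes these shares were 7.15% and 3.39%. No peak was found at ALC, RPL, JAG or FIL.

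**Figure D4:**
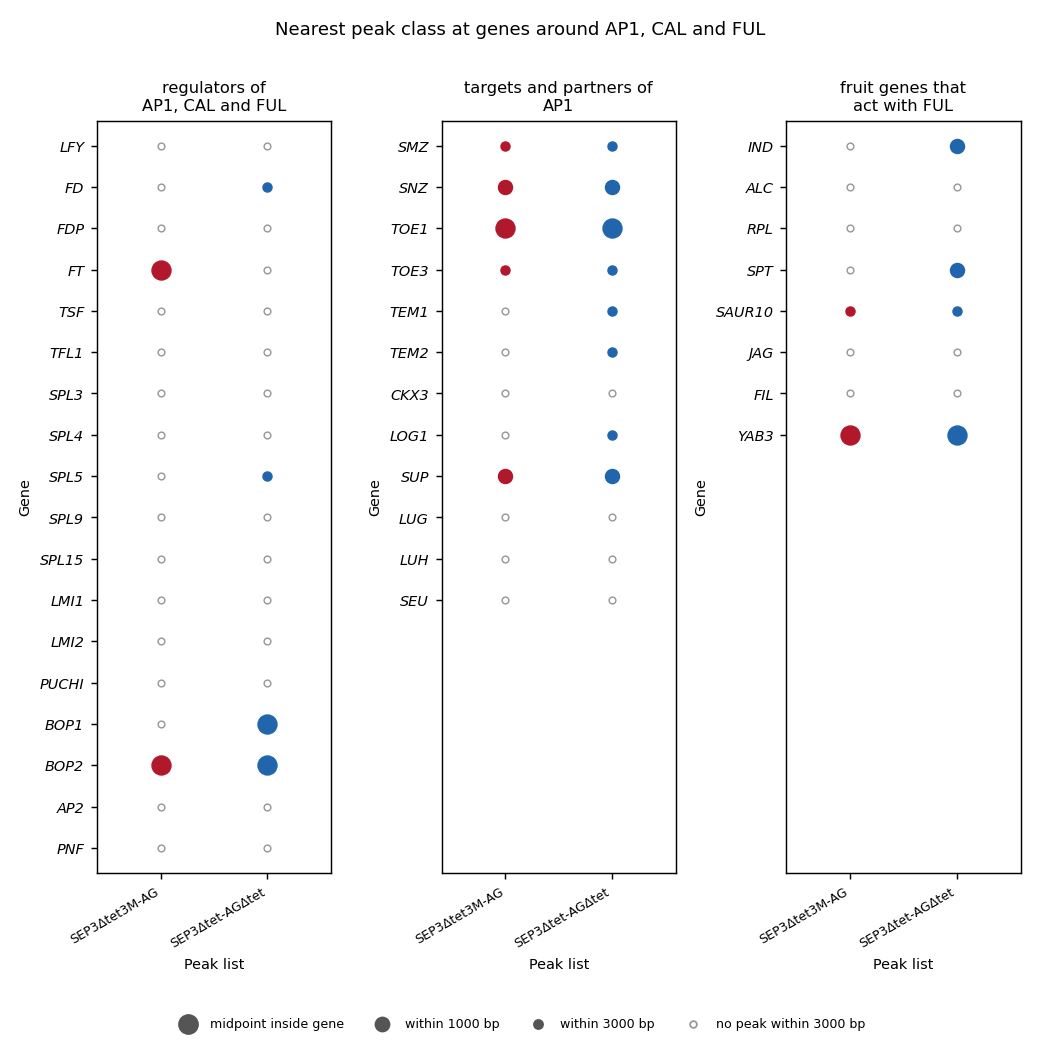
Position class of the closest peak at 18 regulators of AP1, CAL and FUL, 12 targets and partners of AP1 and 8 fruit genes (rows), with the SEP3Δtet3M-AG list in the left and the SEP3Δtet-AGΔtet list in the right column of each panel. Dot sizes stand for a midpoint inside the gene, within 1000 bp and within 3000 bp, and open dots for no peak: 9 genes have a filled dot with SEP3Δtet3M-AG and 16 with SEP3Δtet-AGΔtet.

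The sources used here do not name the genome build behind the peaks. All peaks were moved together to see how far the positions depended on a common offset. Such a move cannot show whether the builds match, since it covers only an offset shared by all peaks. The shares below were therefore not read as good or poor fit. As deposited, 52.2% of SEP3Δtet3M-AG midpoints and 46.7% of SEP3Δtet-AGΔtet midpoints lay inside protein-coding genes, the lowest share among moves of 0, 200, 500, 1000, 2000 and 5000 bp in either direction. With all peaks moved 200 bp toward higher coordinates, AP1, CAL, FUL and AGL79 all kept a midpoint inside the gene, AP1 narrowly, and with 500 bp AP1 and CAL both lost it. With 200 bp toward lower coordinates AGL79 lost it, its midpoint being 27 bp from the end.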

How the data were processed

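Binding was read from 1 peak list per complex. The authors deposited peak positions in 3 columns, made with Bowtie2, SAMtools and MACS2 (versions unnamed), per the submitters' processing notes. The build, caller settings, read depth and any pooling are not stated in the sources used here. Genes came from the RefSeq TAIR10.1 table, used for names, lengths and neighbours, and its coordinates are not printed. Peak coordinates are counted from 1. All 77 list genes were matched, 63 by symbol, 11 by synonym and 3 by choosing among loci (SEP1, SEP2 and AGL79). Genes were assigned every peak whose midpoint they contained or that came within 3000 bp of them, and peaks overlapped with 1 bp in common. The counting was checked on artificial peaks placed at set distances. Intervals are exact (Clopper-Pearson). Named genes are the 4 members, their neighbours, MIKC genes by pattern and pathway genes with a peak. Genes named as having none were added for contrast after their values were seen. The members and lists were chosen with earlier results of these data known, so no set test was run. Python 3.11.15, pandas 2.3.3 and SciPy 1.17.1 were used.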

Additional observations from a re-analysis of the deposited data

How the results depend on the processing

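At AP1, CAL, FUL and AGL79 the counts of 2 genes per list were the same with flanks of 1000 or 5000 bp, with the gene body alone, with any base of a peak counted and with overlapping peaks merged. Every member midpoint lay inside its gene, so the smaller flank and the gene body could not lower these counts. Only the wider flank and the any-base rule could have added a gene. A flank of 10000 bp, added after seeing the data, raised the SEP3Δtet3M-AG count to 3 through the COB peak beside FUL. The other overlap rules, at least 200 bp in common or midpoints within 100 bp, are stricter than 1 bp in common. No member peak had a partner under them, which the main rule had already fixed. Moving all peaks by 200 bp toward lower coordinates left 1 member with a SEP3Δtet-AGΔtet midpoint inside the gene. Over all protein-coding genes, a limit of 1000 bp gave 1814 genes for SEP3Δtet3M-AG and 2385 for SEP3Δtet-AGΔtet, the gene body gave 869 and 1043, and the share within 3000 bp was 15.1% and 19.4% among genes of 3000 to 5000 bp. With the gene body alone 12 MIKC genes had a SEP3Δtet-AGΔtet peak. The regulators had 2 with SEP3Δtet-AGΔtet at 1000 bp and 2 for the body. The AP1 targets had 3 with each complex at 1000 bp and 1 for the body. The fruit genes had 1 with SEP3Δtet3M-AG at 1000 bp, and 1 with each complex for the body. The planned search for CArG boxes was not run, as no sequence was used here. No paired analysis was possible because each complex has 1 list. Caller thresholds and depth were not tested.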
